A study of Saccharomyces cerevisiae with 9 samples.

Results

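The comparison set 3 mid log libraries of budding yeast against 3 early log libraries, out of 9 mRNA-seq libraries in the series. Members were taken by sample label, with every gene row of the deposited count tables (7127 rows) and without the 5 summary rows, and 5951 genes had enough reads to be tested. All cultures were *Saccharomyces cerevisiae* of one strain, MATa with the mutant markers can1-100, his3-11, trp1-1, ura3-1 and ade2-1, a mutant leu2 marker and the tagged Pol I subunit allele RPA135-(HA)3-(His)7::TRP1. They grew in YPD, a rich medium with glucose, at 30 °C, and no drug or mutation separated the groups. Early log cultures were collected at an OD600 of 0.2 to 0.3 according to the methods (0.25 to 0.4 according to the results) and mid log cultures at 0.5 to 0.7 (0.5 to 0.75). OD600 is the turbidity of the culture, so the groups differed in cell density on the way to glucose exhaustion. The 3 replicates of a group are described as biological replicates. Polyadenylated RNA was selected, made into strand-specific libraries and read from one end. The tagged strain was the only one, so values hold for that background, and a bulk culture cannot tell fewer cells with a transcript from less transcript per cell. Genes with a UTP symbol and genes of RNA polymerase I (Pol I) are left out of the lists below.

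Yeast on glucose ferments sugar to ethanol through glycolysis, pyruvate decarboxylase and alcohol dehydrogenase, and represses most respiratory and alternative carbon genes meanwhile. Fast-growing cells spend much of their transcription on ribosomes, through separate regulons for ribosomal protein genes and for the factors that process rRNA and assemble subunits. Reserve carbohydrates, amino acid uptake, phosphate scavenging and nitrogen-source genes are known to respond to nutrient signals through protein kinase A, TOR complex 1, Snf1 and the PHO pathway.

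Mid log replicate 1 stood apart from mid log replicates 2 and 3. The SD of the log2 differences between libraries was 1.17 and 1.20 for replicate 1 against replicates 2 and 3, and 0.33 between those. In early log it was 0.24 between replicates 1 and 2 and 0.76 and 0.72 for replicate 3 against them. Reads counted on genes numbered 25763465 to 34358259 a library. The 10 genes with most reads took 10.006% to 15.7% of them in early log, 20.1% in mid log replicate 1 and 26.2% and 25.7% in replicates 2 and 3. All mid log libraries were sequenced in run 2 and the early log libraries in runs 1 (replicates 1 and 2) and 3 (replicate 3), so subphase and run cannot be told apart, and neither can the distance of early log replicate 3 and its run. The study places the samples it calls early log C and mid log A at the upper and the lower limit of density of their groups. The mating type label was checked with fixed markers. The 7 a-specific genes summed to 782 to 1649 CPM (counts divided by the TMM-scaled library total in units of 1e6) and the 4 alpha-specific genes to 20.8 to 28.7 CPM, most of it SAG1, with MF(ALPHA)1 and MF(ALPHA)2 under 1 CPM in every library.

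Of the 5951 genes tested, 2674 were called at an adjusted p of 0.05 by the quasi-likelihood test of edgeR (Benjamini-Hochberg adjustment), which is 44.9% of them. Higher in mid log were 1233 genes (20.7%) and lower were 1441 (24.2%). Falls were deeper than rises. Among called genes the median log2 fold change was 1.26 for those higher and −1.99 for those lower, and 718 genes fell by more than 2 on the log2 scale against 99 that rose by more than 2. Genes called higher also held more reads, with a median of 91.5 CPM against 11.0 CPM for genes called lower and 23.8 CPM for all. Of 1983 genes with a mean log2 CPM of 3 to 5, 186 were called higher and 680 lower. At 7 to 9 it was 339 and 16 of 634 genes, and at 9 or more 165 and 12 of 347. Lists of abundant genes are to be read against these counts too. The 3 mid log values lay wholly above the 3 early log values for 1629 genes (27.4%) and wholly below for 2034 (34.2%), together 61.6% of genes. The counts of called genes in each list below are to be read against the 20.7% and 24.2% of all genes. Counts without mid log replicate 1 are to be read against 33.6% and 42.8% of all genes. Counts by library totals are to be read against 216 genes higher and 2127 lower of 5951.

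The number of calls depended on which library was left out. Leaving out early log replicate 1, early log replicate 2, mid log replicate 2 or mid log replicate 3 left 0 genes called, with 2441 to 2476 at an unadjusted p below 0.05. Without mid log replicate 1 the same test called 4592 genes (76.4% of 6007 tested), 2019 higher (33.6%) and 2573 lower (42.8%), and without early log replicate 3 it called 2208. Counts without mid log replicate 1 therefore stand beside each list below. The scaling mattered too. By library totals in place of TMM the median of all genes moved by −0.77 on the log2 scale, from −0.12 to −0.89. With that scaling 216 genes were called higher and 2127 lower. List medians by library totals are to be read against −0.89. DESeq2's own test called 1542 higher and 1608 lower.

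**Figure D1:**
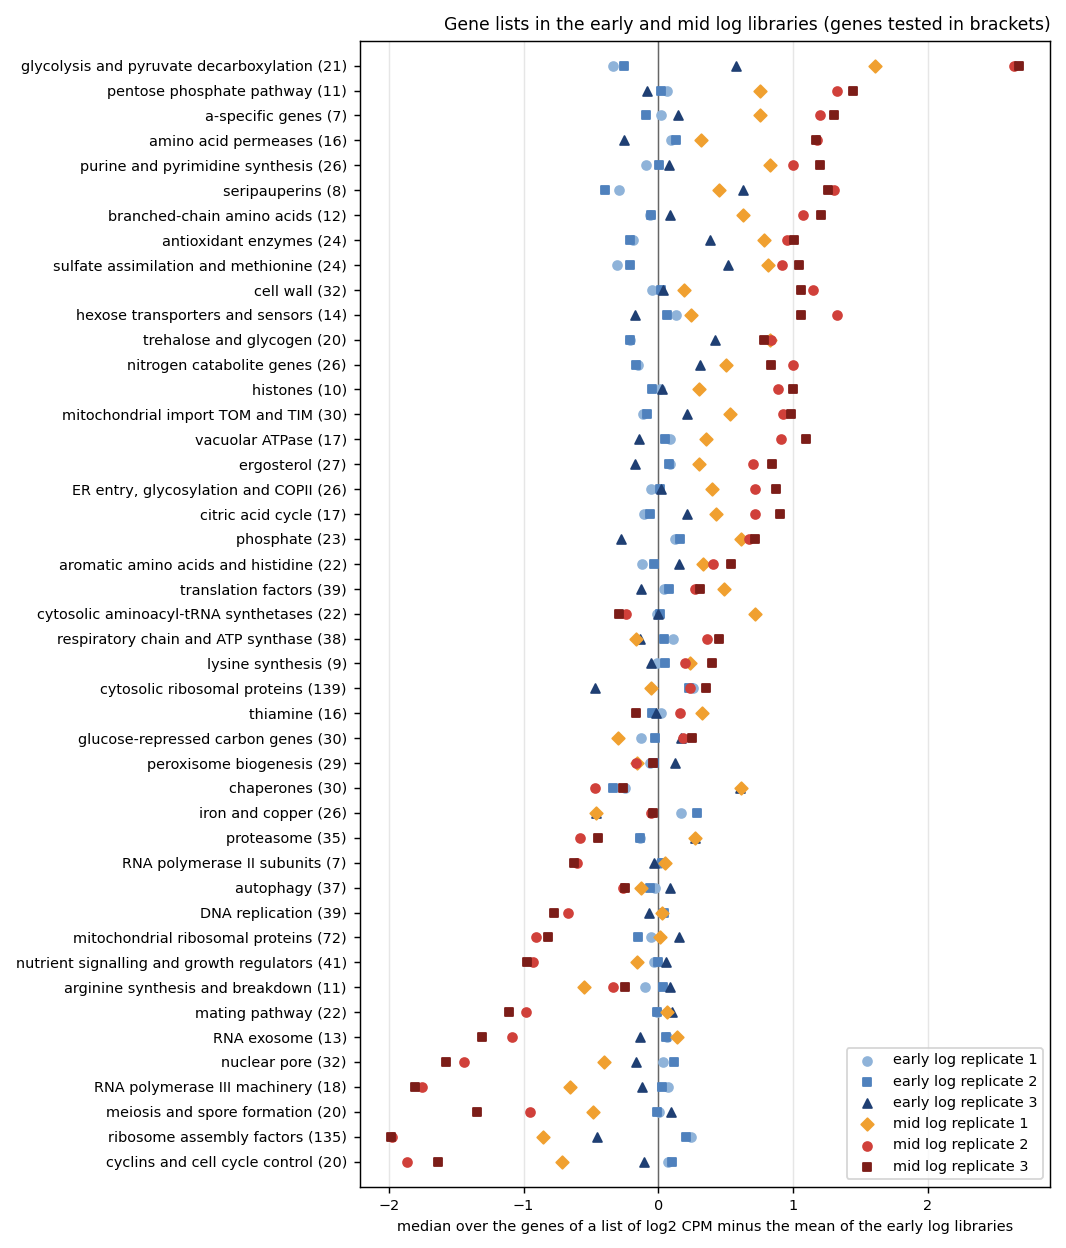
Each row is a gene list with its number of tested genes, and each point the median over its genes of log2 CPM in a library minus the mean of the 3 early log libraries. Mid log replicates 2 and 3 lie together at both ends of the plot, glycolysis at 2.64 and 2.68 and ribosome assembly factors at −1.98 and −1.98, and mid log replicate 1 lies nearer to early log there, at 1.60 and −0.86. By library totals the list medians of group differences are lower throughout and many cross 0.

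Genes of glycolysis and alcoholic fermentation rose together. Of 21 genes, 19 were called higher and 0 lower, and the median of their log2 fold changes was 2.30 against −0.12 over all genes. The counts were also 19 and 0 without mid log replicate 1, and by library totals they were 13 and 0 with a median of 1.42. The list took 7.099%, 7.46% and 15.4% of counted reads in early log and 20.99%, 27.2% and 26.8% in mid log. Early log replicate 3 lay between the other early log libraries and mid log replicate 1, and no mid log share overlapped an early log share.

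TDH1, one of the isozymes of glyceraldehyde-3-phosphate dehydrogenase, was at 215, 178 and 321 CPM in early log and 999, 2289 and 2076 CPM in mid log, given here and below in the order of replicates 1, 2 and 3. This was 7.51-fold higher in mid log (log2 fold change 2.91 ± 0.41 (SE), adjusted p = 0.0135). ADH1, the main alcohol dehydrogenase of fermentation, was at 4162, 4207 and 8258 CPM in early log and 20282, 52449 and 50225 CPM in mid log (log2 fold change 2.89 ± 0.52 (SE), adjusted p = 0.0135). In both genes every mid log library lay above every early log library, with mid log replicate 1 lowest of its group and early log replicate 3 highest of its own. PGK1, phosphoglycerate kinase, had a log2 fold change of 2.81 and the enolase genes ENO1 and ENO2 2.65 and 2.83. TDH3, ENO2, PDC1, ADH1 and FBA1 had the most reads of all genes. TDH3 was at 7637, 8161 and 22152 CPM in early log and 37199.5, 77876 and 79328 CPM in mid log (log2 fold change 2.36 ± 0.57 (SE), adjusted p = 0.0188). FBA1, the aldolase, was at 5328, 5781 and 12646 CPM in early log and 22932, 19364 and 24492 CPM in mid log, so here mid log replicate 1 was within the range of the other mid log libraries. The 2 genes of the list that were not called were PDC5 and PDC6, minor pyruvate decarboxylase isozymes. The median GC content of the list was 45.2% against 39.6% for all protein-coding genes, and with the trend with GC content removed 18 genes were still called higher. The list median was then 1.67, against 0.20 over all genes.

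**Figure D2:**
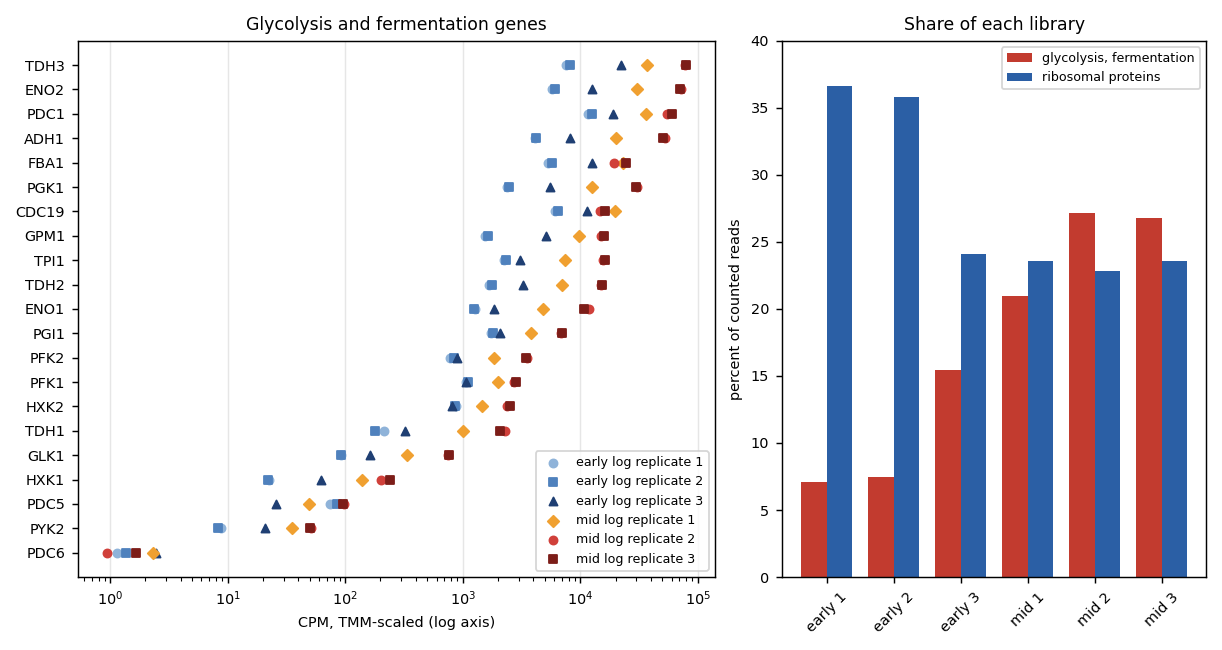
Left, CPM of each glycolysis and fermentation gene in the 6 libraries on a log axis. Right, bars from 0 of the percent of counted reads of each library on this list (early log 7.10% to 15.4%, mid log 20.99% to 27.2%) and on ribosomal protein genes. Mid log replicate 1 (diamonds) lies between early log and mid log replicates 2 and 3 for most genes.

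Sugar entry and storage moved with this group in part. HXT6, a high-affinity glucose transporter, was at 6.56, 6.37 and 9.79 CPM in early log and 24.9, 79.2 and 74.3 CPM in mid log (log2 fold change 2.97 ± 0.49 (SE), adjusted p = 0.0135). HXT7 was at 84.6, 84.2 and 73.6 CPM in early log and 114, 319 and 277 CPM in mid log (log2 fold change 1.55 ± 0.38 (SE), adjusted p = 0.0197). The mid log libraries were above the early log ones for both, but HXT6 and HXT7 are 99.8% identical over their 1713 bases, so reads cannot be assigned between them with certainty. Among hexose transporters and sensors 4 of 14 genes were called higher and 0 lower, 8 and 2 without mid log replicate 1, with a median of 0.82 that was −0.04 by library totals, with 1 called higher and 0 lower. Their summed level was 4173, 4145 and 1263 CPM in early log and 2619, 5570 and 5534 CPM in mid log, so the groups overlapped.

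By TMM scaling most of the called genes of reserve carbohydrates were higher. 10 of 20 genes of the trehalose and glycogen list were called higher and 3 lower, 11 and 4 without mid log replicate 1, with a median of 0.81 (0.02 by library totals, with 4 called higher and 5 lower). GLC3, the glycogen branching enzyme, was at 17.3, 16.04 and 33.7 CPM in early log and 75.1, 127 and 129 CPM in mid log (log2 fold change 2.31 ± 0.39 (SE), adjusted p = 0.0135). PGM2, the main phosphoglucomutase, was at 14.4, 14.1 and 28.6 CPM in early log and 70.8, 96.9 and 113 CPM in mid log (log2 fold change 2.30 ± 0.37 (SE), adjusted p = 0.0135). For both genes the early and mid log values did not overlap and mid log replicate 1 lay between. The glycogen synthases GSY1 and GSY2 (1.94 and 1.28), glycogen phosphorylase GPH1 (2.29), the debranching enzyme GDB1 (0.99) and trehalose-6-phosphate synthase TPS1 (1.41) were also higher, in log2 fold change. The 3 genes called lower were the glycogenin gene GLG1 (−2.06) and PIG1 and PIG2 (−2.26 and −1.36), which encode likely targeting subunits of protein phosphatase type 1.

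In the pentose phosphate pathway, which supplies NADPH and ribose, 10 of 11 genes were called higher and 0 lower, 10 and 0 without mid log replicate 1, with a median of 1.13 (0.27 by library totals, where no member was called). ZWF1, glucose-6-phosphate dehydrogenase at its entry, was at 77.004, 84.8 and 207 CPM in early log and 304, 553 and 573 CPM in mid log (log2 fold change 1.96 ± 0.46 (SE), adjusted p = 0.0176). RPE1, ribulose-phosphate epimerase, was at 214, 201 and 182 CPM in early log and 302, 787 and 757 CPM in mid log (log2 fold change 1.63 ± 0.38 (SE), adjusted p = 0.0166). The groups did not overlap for either gene. In ZWF1 early log replicate 3 was highest of its group, while in RPE1 it was lowest.

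Genes under glucose repression were called in both directions. Of 30 genes 5 were called higher and 4 lower, both shares below those of all genes (9 and 7 without mid log replicate 1). The median was −0.03 (−0.86 by library totals, with 0 called higher and 9 lower). SUC2, invertase, was at 50.4, 53.7 and 52.3 CPM in early log and 81.1, 138 and 158 CPM in mid log (log2 fold change 1.27 ± 0.29 (SE), adjusted p = 0.016). ACS1, an acetyl-CoA synthetase, was at 7.42, 7.87 and 10.8 CPM in early log and 11.4, 27.5 and 26.6 CPM in mid log (log2 fold change 1.33 ± 0.40 (SE), adjusted p = 0.0339). ADR1, an activator of glucose-repressed genes, was at 22.7, 28.9 and 43.9 CPM in early log and 13.1, 17.8 and 15.7 CPM in mid log (log2 fold change −1.03 ± 0.32 (SE), adjusted p = 0.0371), lower in every mid log library. In the citric acid cycle 5 of 17 genes were called higher and 0 lower (11 and 3 without mid log replicate 1, median 0.67, −0.13 by library totals, with 0 called higher and 1 lower). Its examples were the succinate dehydrogenase subunits SDH1 (log2 fold change 1.14 ± 0.24 (SE), adjusted p = 0.0144) and SDH4 (log2 fold change 1.27 ± 0.33 (SE), adjusted p = 0.0215).

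Respiratory chain and ATP synthase genes were also called in both directions. 3 of 38 genes were called higher and 4 lower, both shares below those of all genes. Without mid log replicate 1 the counts were 17 and 6. The medians by library were −0.17 in mid log replicate 1 and 0.36 and 0.45 in replicates 2 and 3. ATP1, the alpha subunit of the F1 ATPase, was at 497, 499 and 497 CPM in early log and 926, 1652 and 1642 CPM in mid log (log2 fold change 1.499 ± 0.28 (SE), adjusted p = 0.0135). QCR7, a subunit of complex III, was at 200.3, 184 and 165 CPM in early log and 81.6, 55.05 and 45.8 CPM in mid log (log2 fold change −1.59 ± 0.27 (SE), adjusted p = 0.0135). The groups did not overlap in either gene, ATP1 being high and QCR7 low in all mid log libraries. By library totals the median of the list was −0.60 against 0.25 by TMM, with 1 called higher and 14 lower.

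Phosphate genes gave the 2 largest rises that the rule for named genes selected. GIT1, a permease for glycerophosphodiesters, was at 10.4, 11.9 and 15.98 CPM in early log and 111, 203 and 202 CPM in mid log, 13.5-fold higher (log2 fold change 3.75 ± 0.35 (SE), adjusted p = 0.0135). PHO12, an acid phosphatase of the PHO regulon, was at 10.2, 10.99 and 6.73 CPM in early log and 94.1, 74.9 and 92.3 CPM in mid log (log2 fold change 3.23 ± 0.30 (SE), adjusted p = 0.0135). Mid log replicate 1 was highest for PHO12 and between them and early log for GIT1. PHO12 is 99.7% identical to PHO11 over 1404 bases, so the pair is uncertain as single genes. In the list 11 of 23 genes were called higher and 2 lower, 12 and 4 without mid log replicate 1, with a median of 0.62 (−0.19 by library totals, with 5 called higher and 6 lower). The other genes called higher were PHM6 (2.59), PHO11 (2.36), the acid phosphatase PHO5 (2.01), the polyphosphate polymerase subunits VTC1 (1.64) and VTC4 (0.95), the transporters PHO89 (1.26), PHO90 (0.70) and PHO91 (0.62) and the vacuolar phosphatase PHO8 (0.68), in log2 fold change. Lower were PHM8, a nucleotidase, at 146, 128 and 96.3 CPM in early log and 53.8, 14.8 and 13.5 CPM in mid log (log2 fold change −2.17 ± 0.57 (SE), adjusted p = 0.0225), and the transcription factor PHO2 (log2 fold change −1.59 ± 0.36 (SE), adjusted p = 0.016).

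Nitrogen and amino acid genes included many that encode permeases. 8 of 16 genes of the amino acid permease list were called higher and 0 lower, 13 and 0 without mid log replicate 1, with a median of 0.96 (0.11 by library totals, with 1 called higher and 0 lower). GAP1, the general amino acid permease, was at 258, 276 and 864 CPM in early log and 1657, 2666 and 2529 CPM in mid log (log2 fold change 2.29 ± 0.53 (SE), adjusted p = 0.0165). PUT4, the proline permease, was at 20.8, 20.8 and 40.8 CPM in early log and 46.9, 115 and 90.8 CPM in mid log (log2 fold change 1.61 ± 0.43 (SE), adjusted p = 0.0235). MEP2, an ammonium permease under nitrogen catabolite repression, was at 89.7, 90.4 and 244 CPM in early log and 444, 1039 and 976 CPM in mid log (log2 fold change 2.53 ± 0.53 (SE), adjusted p = 0.0145). In all 3 genes the mid log libraries lay above the early log ones, and early log replicate 3 lay above early log replicates 1 and 2. Among nitrogen catabolite genes 10 of 26 genes were called higher and 2 lower (16 and 6 without mid log replicate 1, median 0.78, −0.06 by library totals, with 1 called higher and 3 lower), and the genes lower were the transcription factors GLN3 (17.4, 18.3 and 8.11 CPM in early log and 3.05, 3.77 and 2.73 CPM in mid log, log2 fold change −2.20 ± 0.40 (SE), adjusted p = 0.0135) and DAL81 (−2.08 in log2 fold change).

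By TMM scaling the called genes of sulfur metabolism were higher. Of 24 genes of sulfate assimilation and methionine synthesis 11 were called higher and 0 lower, 16 and 1 without mid log replicate 1, with a median of 0.89 (0.09 by library totals, with 0 called higher and 1 lower). SAM2, S-adenosylmethionine synthetase, was at 52.9, 64.5 and 267 CPM in early log and 739, 770.4 and 835 CPM in mid log (log2 fold change 2.61 ± 0.63 (SE), adjusted p = 0.0185). MET6, methionine synthase, was at 70.2, 93.3 and 379 CPM in early log and 839, 1125 and 1285 CPM in mid log (log2 fold change 2.58 ± 0.66 (SE), adjusted p = 0.021). In both genes early log replicate 3 lay well above replicates 1 and 2 but below every mid log library.

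In arginine synthesis the called genes were lower. ARG1, argininosuccinate synthase, was at 449.7, 527 and 328 CPM in early log and 68.3, 63.3 and 79.95 CPM in mid log, 6.17-fold lower in mid log (log2 fold change −2.62 ± 0.26 (SE), adjusted p = 0.0135). ARG3, ornithine carbamoyltransferase, was at 79.7, 88.9 and 30.8 CPM in early log and 14.1, 18.1 and 20.7 CPM in mid log (log2 fold change −1.92 ± 0.43 (SE), adjusted p = 0.0158). Mid log replicate 1 was at the level of replicates 2 and 3 for ARG1 and below them for ARG3, and the groups did not overlap. CPA1, a carbamoyl phosphate synthetase subunit, was the remaining gene called (−1.25 in log2 fold change), and the list stood at 0 higher and 3 lower of 11, 1 and 4 without mid log replicate 1, and 0 called higher and 7 lower by library totals. With all libraries the share called lower was near that of all genes. The list took 0.277%, 0.306% and 0.273% of counted reads in early log and 0.111%, 0.101% and 0.108% in mid log.

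Other amino acid routes held called genes in both directions. For branched-chain amino acids 8 of 12 genes were called higher and 1 lower (8 and 2 without mid log replicate 1, median 0.93, 0.07 by library totals, with 1 called higher and 2 lower). LEU2, an enzyme of leucine synthesis that the strain carries as a mutant marker, was at 227, 206 and 231 CPM in early log and 511, 1022 and 1078 CPM in mid log (log2 fold change 1.97 ± 0.32 (SE), adjusted p = 0.0135). LEU3, the regulator of the route, was at 40.5, 39.9 and 27.8 CPM in early log and 16.1, 11.5 and 11.6 CPM in mid log (log2 fold change −1.46 ± 0.29 (SE), adjusted p = 0.0136). For aromatic amino acids and histidine 7 of 22 genes were called higher and 2 lower (11 and 4, median 0.42, −0.39 by library totals, with 2 called higher and 5 lower). TRP5, tryptophan synthase, was at 323, 333 and 359.9 CPM in early log and 617, 1243 and 1288 CPM in mid log (log2 fold change 1.63 ± 0.32 (SE), adjusted p = 0.0135). TRP1 (1.70 in log2 fold change) is the marker beside the RPA135 tag, so its reads mix that copy with trp1-1. In lysine synthesis 3 of 9 genes were called higher and 1 lower (4 and 4 without mid log replicate 1, median 0.23, −0.62 by library totals, with 0 called higher and 2 lower). LYS9 was at 87.9, 91.3 and 104 CPM in early log and 177, 179 and 186 CPM in mid log (log2 fold change 0.94 ± 0.19 (SE), adjusted p = 0.0142). LYS14, the transcriptional activator, was at 57.7, 57.5 and 44.3 CPM in early log and 25.4, 17.4 and 17.1 CPM in mid log (log2 fold change −1.41 ± 0.28 (SE), adjusted p = 0.0135).

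The called genes of nucleotide synthesis were higher with all libraries. Of 26 genes 14 were called higher and 0 lower, 18 and 2 without mid log replicate 1, with a median of 0.95 (0.10 by library totals, with 2 called higher). SHM2, cytosolic serine hydroxymethyltransferase, was at 65.8, 68.8 and 120.1 CPM in early log and 278, 287 and 345 CPM in mid log (log2 fold change 1.84 ± 0.30 (SE), adjusted p = 0.0135). URA8, a CTP synthase, was at 60.1, 60.7 and 109 CPM in early log and 219.6, 233 and 275 CPM in mid log (log2 fold change 1.66 ± 0.30 (SE), adjusted p = 0.0135). Mid log replicate 1 was close to replicates 2 and 3 in both, and the groups were apart. In ergosterol synthesis 12 of 27 were called higher and 0 lower, 18 and 4 without mid log replicate 1 (median 0.69, −0.11 by library totals, with 3 called higher and 2 lower). Among them ERG24, a sterol reductase, was at 164, 178 and 134 CPM in early log and 279, 564 and 577 CPM in mid log (log2 fold change 1.57 ± 0.32 (SE), adjusted p = 0.0143). HMG2, one of the HMG-CoA reductases, was at 76.4, 78.8 and 75.2 CPM in early log and 141, 249 and 241 CPM in mid log (log2 fold change 1.45 ± 0.27 (SE), adjusted p = 0.0135). OPI3, a phospholipid methyltransferase of phosphatidylcholine synthesis, was among the largest rises, at 45.96, 43.3 and 98.3 CPM in early log and 248, 725 and 597 CPM in mid log (log2 fold change 3.07 ± 0.52 (SE), adjusted p = 0.0135).

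Genes called lower in the iron and copper list included its main activator. FET3, the ferroxidase of high-affinity uptake, was at 567, 633 and 141 CPM in early log and 81.4, 65.04 and 64.2 CPM in mid log (log2 fold change −2.67 ± 0.54 (SE), adjusted p = 0.0139). AFT1, the activator of the iron regulon, was at 28.8, 27.9 and 6.19 CPM in early log and 1.798, 0.262 and 0.157 CPM in mid log (log2 fold change −4.74 ± 1.03 (SE), adjusted p = 0.0151). Its values in mid log replicates 2 and 3 rest on 5 and 3 reads, so the size of the fall is uncertain. Early log replicate 3 lay far below early log replicates 1 and 2 in both genes and still above every mid log library. In the iron and copper list 1 of 26 genes were called higher and 7 lower, 5 and 7 without mid log replicate 1 (median −0.19, −1.02 by library totals, with 0 called higher and 13 lower). With all libraries the share called lower was near that of all genes. Without mid log replicate 1 both shares were below those of all genes. The genes lower were AFT1, AFT2, FET3, FIT2, SIT1, FRE4 and TIS11. The list took 0.316%, 0.342% and 0.159% of counted reads in early log and 0.1%, 0.0955% and 0.0886% in mid log. Thiamine genes were at 5 higher and 0 lower of 16 (7 and 1 without mid log replicate 1, 1 and 2 without early log replicate 3). Their median was 0.04 (−0.72 by library totals, with 0 called higher and 5 lower). THI2, a transcriptional activator, was at 6.81, 6.46 and 6.62 CPM in early log and 9.14, 13.8 and 14.3 CPM in mid log (log2 fold change 0.90 ± 0.29 (SE), adjusted p = 0.0418). Their share of reads was 0.137%, 0.134% and 0.0907% of counted reads in early log and 0.0691%, 0.044% and 0.0449% in mid log. Their summed level was 1053, 1038 and 649.6 CPM in early log and 724, 645 and 686 CPM in mid log, and the groups overlapped.

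Most ribosome assembly factors were called lower. These proteins process rRNA and assemble the subunits in the nucleolus and nucleus. Of 135 genes 73 were called lower and 8 higher, 108 and 11 without mid log replicate 1, with a median log2 fold change of −1.50 by TMM and −2.26 by library totals, with 2 called higher and 86 lower. The medians by library were −0.86 in mid log replicate 1 and −1.98 and −1.98 in replicates 2 and 3. NOP7, a factor of the large subunit, was at 185, 181 and 45.9 CPM in early log and 14.8, 4.5002 and 2.88 CPM in mid log, 18.4-fold lower (log2 fold change −4.20 ± 0.81 (SE), adjusted p = 0.0135). MAK21, also of the large subunit, was at 114, 102 and 23.2 CPM in early log and 7.77, 2.98 and 2.52 CPM in mid log (log2 fold change −4.15 ± 0.75 (SE), adjusted p = 0.0135). RRP7, a factor of the small subunit, was at 27.8, 18.95 and 12.6 CPM in early log and 1.28, 0.419 and 0.524 CPM in mid log (log2 fold change −4.69 ± 0.57 (SE), adjusted p = 0.0135). In each gene all mid log libraries lay below early log, replicate 1 being the highest of them, and early log replicate 3 was the lowest of its group. Further large falls were SDA1 (−3.45), MAK5 (−3.29), RLP24 (−3.26), MPP10 (−3.19) and LTV1 (−4.38), all in log2 fold change.

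The genes of this list that rose were NOP1, GAR1, NIP7, NSR1, DHR2, EMG1, SQT1 and AFG2. GAR1, a protein of the H/ACA snoRNP, was at 293, 282 and 299 CPM in early log and 687, 1567 and 1635 CPM in mid log (log2 fold change 2.15 ± 0.36 (SE), adjusted p = 0.0135). NOP1, the rRNA methyltransferase fibrillarin, was at 1185, 1207 and 879 CPM in early log and 1886, 3805 and 3960.04 CPM in mid log (log2 fold change 1.56 ± 0.35 (SE), adjusted p = 0.0157). Every mid log library was above early log in both genes. The genes of the list called higher had a median GC content of 42.7% and those called lower 38.1%, and with the GC trend removed the counts were 10 higher and 58 lower. The list median was then −1.02, against 0.20 over all genes. The summed level of the list was 14397, 14267 and 10059 CPM in early log and 13161, 13610 and 13738 CPM in mid log. The groups overlapped in this sum, but not in the share of reads, which was 1.87%, 1.84% and 1.405% of counted reads in early log and 1.26%, 0.928% and 0.899% in mid log. The list holds 4 genes with UTP names as synonyms (FCF1, NOC4, NOP14 and SAS10), and without them 70 of 131 genes were called lower and 8 higher.

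The promoters of these genes share sequence elements that the list did not use. The PAC core GATGAG and the RRPE core AAAATTT, searched on both strands from 250 bases before to 50 after each start, are known as elements of ribosome assembly genes. PAC was in 125 and RRPE in 126 of the 135 promoters, and both in 118 (87.4%), against 457 of 5627 protein-coding genes tested (8.12%). Among genes called lower 11.3% held both, 7.20% without the assembly factors, and among genes called higher 6.36%. Within the list, 64 of the 73 genes called lower and 6 of the 8 called higher held both. Genes with both elements anywhere in the genome had a median of −0.66 (log2 fold change) and the others −0.17. The 118 assembly factors are among the 457 genes with both elements, and the median without them was not computed. The promoters of FCF2 and LCP5, the assembly factors with both elements and the lowest p, are shown as examples, from the R64 genome of RefSeq, 5′ to 3′ along the gene, with PAC and RRPE in capitals on either strand (FCF2, chrXII:246928-247227, minus strand, LCP5, chrV:414231-414530, plus strand).
FCF2: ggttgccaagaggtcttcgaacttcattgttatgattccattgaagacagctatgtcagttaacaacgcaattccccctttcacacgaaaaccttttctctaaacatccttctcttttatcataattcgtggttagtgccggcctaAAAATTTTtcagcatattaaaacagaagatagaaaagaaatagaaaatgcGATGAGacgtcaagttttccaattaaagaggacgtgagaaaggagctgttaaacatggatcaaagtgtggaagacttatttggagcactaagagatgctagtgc
LCP5: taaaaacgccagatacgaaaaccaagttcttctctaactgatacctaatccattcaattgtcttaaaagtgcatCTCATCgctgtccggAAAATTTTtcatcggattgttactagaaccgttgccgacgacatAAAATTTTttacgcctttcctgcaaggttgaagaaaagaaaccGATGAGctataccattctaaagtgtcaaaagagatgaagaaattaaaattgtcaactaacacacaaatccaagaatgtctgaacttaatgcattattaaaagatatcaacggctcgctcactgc
Hits of AAAATTT on the opposite strands overlap in AAAATTTT. FCF2 was at 32.2, 21.7 and 15.8 CPM in early log and 5.33, 2.98 and 2.62 CPM in mid log (log2 fold change −2.66 ± 0.43 (SE), adjusted p = 0.0135). LCP5 was at 35.6, 30.9 and 10.7 CPM in early log and 4.05, 2.88 and 2.15 CPM in mid log (log2 fold change −3.08 ± 0.53 (SE), adjusted p = 0.0135), with all mid log libraries below early log in both.

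The stress response element AGGGG was in 21.9% of all promoters, in 25.5% of those of genes called higher and in 19.0% of those called lower. Promoters were taken for protein-coding genes only. Of the 75 such genes called higher with a log2 fold change over 2, 33.3% held it. Of the trehalose and glycogen genes 9 of 20 held it and of the chaperone genes 11 of 30. The Gcn4 core TGACTC was in 8.28% of all promoters, in 9.42% of those of genes called higher and in 6.97% of those called lower, and in 6 of the 11 arginine genes. ZWF1 had the most AGGGG hits among the named genes called higher, 5, and is shown with GLC3, which had 2 and the lowest p of the next genes, hits in capitals on either strand (ZWF1, chrXIV:197894-198193, minus strand, GLC3, chrV:132870-133169, plus strand).
ZWF1: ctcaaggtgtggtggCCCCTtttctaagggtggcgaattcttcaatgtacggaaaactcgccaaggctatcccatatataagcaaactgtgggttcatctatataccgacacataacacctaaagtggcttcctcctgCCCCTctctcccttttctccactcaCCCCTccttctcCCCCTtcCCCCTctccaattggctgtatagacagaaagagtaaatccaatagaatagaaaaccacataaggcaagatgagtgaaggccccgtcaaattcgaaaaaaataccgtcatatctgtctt
GLC3: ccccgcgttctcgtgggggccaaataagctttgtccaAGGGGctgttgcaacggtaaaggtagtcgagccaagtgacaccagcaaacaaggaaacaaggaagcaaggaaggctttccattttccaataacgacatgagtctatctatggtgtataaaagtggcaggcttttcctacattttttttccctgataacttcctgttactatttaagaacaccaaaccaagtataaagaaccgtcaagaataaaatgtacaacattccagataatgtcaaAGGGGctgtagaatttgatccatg
All 5 hits of ZWF1 read CCCCT on the strand of the gene, and 1 of the 2 in GLC3 lies past the start. A match of so few letters is a description of sequence only.

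Ribosomal protein genes were called in both directions. Of 139 genes 9 were called higher and 13 lower, both shares below those of all genes, and 38 and 34 were called without mid log replicate 1. The median was 0.12 by TMM and −0.69 by library totals, where 40 genes were called lower and 1 higher. Both of these shares were again below those of all genes. The list took 36.6%, 35.8% and 24.1% of counted reads in early log and 23.6%, 22.8% and 23.6% in mid log, so early log replicate 3 was at the level of mid log. By TMM its summed level was 281761, 277286 and 172420 CPM in early log and 246725, 334605 and 360057 CPM in mid log. The groups overlapped in this sum, and mid log replicates 2 and 3 were the highest libraries. RPL2A was at 1678, 1639 and 1422 CPM in early log and 2672, 5174 and 5408 CPM in mid log (log2 fold change 1.48 ± 0.33 (SE), adjusted p = 0.0155). RPL39, a small protein of the large subunit, was at 1467, 1371 and 385 CPM in early log and 332, 242 and 198 CPM in mid log (log2 fold change −2.06 ± 0.51 (SE), adjusted p = 0.0198). The groups did not overlap in either gene, although early log replicate 3 was close to mid log replicate 1 for RPL39. RPL35B (−1.93 in log2 fold change) and RPS4B (1.18) have near-identical copies in RPL35A and RPS4A, at 98.4% and 97.7% identity over the aligned bases, so reads may be split between the copies.

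Translation factors moved in both directions. 14 of 39 genes of the list were called higher and 7 lower, 19 and 15 without mid log replicate 1 (median 0.36, −0.42 by library totals, with 2 called higher and 9 lower). DED1, a helicase of initiation, was at 106, 119 and 145 CPM in early log and 309.9, 574 and 557 CPM in mid log (log2 fold change 1.96 ± 0.30 (SE), adjusted p = 0.0135), and the elongation factor genes TEF1, TEF2, EFT1, EFT2, TEF4, CAM1 and YEF3 were higher, with TEF1 lowest at 0.98 and CAM1 highest at 1.66 in log2 fold change. Both eIF4G genes fell, TIF4631 (256, 242 and 77.3 CPM in early log and 72.97, 55.99 and 52.6 CPM in mid log, log2 fold change −1.66 ± 0.45 (SE), adjusted p = 0.0245) and TIF4632 (48.2, 45.7 and 13.6 CPM in early log and 6.07, 2.93 and 1.05 CPM in mid log, log2 fold change −3.40 ± 0.75 (SE), adjusted p = 0.0154). Early log replicate 3 was well below the other early log libraries for the eIF4G genes and above mid log. TEF1 and TEF2, and EFT1 and EFT2, are pairs with near-identical coding sequences, so their single values are uncertain.

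Cytosolic aminoacyl-tRNA synthetase genes were one of the lists in which mid log replicate 1 stood on the other side of early log from replicates 2 and 3. Of 22 genes 7 were called higher and 0 lower, but without mid log replicate 1 the counts were 8 and 10. Those 2 counts were near the shares of all genes in that fit. The list medians were 0.71 in mid log replicate 1 and −0.24 and −0.29 in replicates 2 and 3, and the median of the comparison was 0.32 by TMM and −0.36 by library totals, with 1 called higher and 1 lower. HTS1, histidyl-tRNA synthetase, was at 282, 289.9 and 264 CPM in early log and 538, 759 and 837 CPM in mid log (log2 fold change 1.35 ± 0.24 (SE), adjusted p = 0.0135). THS1, the threonyl enzyme, was at 563, 573 and 633 CPM in early log and 1125, 1358 and 1409 CPM in mid log (log2 fold change 1.14 ± 0.21 (SE), adjusted p = 0.0135), the groups being apart in both. Their promoters held AAAATTT in 18 of 22 cases and TGACTC in 10 of 22.

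Of the RNA polymerase III machinery, which makes tRNA and 5S rRNA, 2 of 18 genes were called higher and 6 lower, 2 and 12 without mid log replicate 1 (median −1.03, −1.80 by library totals, with 0 called higher and 9 lower). RPC53, a subunit of Pol III, was at 52.2, 50.1 and 10.1 CPM in early log and 7.56, 3.82 and 4.88 CPM in mid log (log2 fold change −2.78 ± 0.64 (SE), adjusted p = 0.0165). RPC37, its partner, was at 48.5, 42.9 and 24.4 CPM in early log and 16.2, 2.35 and 3.198 CPM in mid log (log2 fold change −2.40 ± 0.76 (SE), adjusted p = 0.038). The largest subunits RPO31 and RET1 were called higher, at 0.71 and 0.69 by TMM, and turned to −0.12 and −0.14 by library totals. RPO31 was at 144, 150.5 and 116 CPM in early log and 178, 234 and 259.6 CPM in mid log. In the RNA exosome, which trims and degrades RNA, 2 of 13 genes were called higher and 2 lower, both shares below those of all genes. The counts were 4 and 9 without mid log replicate 1, and the median was −0.61 (−1.29 by library totals, with 0 called higher and 3 lower). The medians by library were 0.14 in mid log replicate 1 and −1.09 and −1.31 in replicates 2 and 3. RRP40 was at 53.2, 53.4 and 51.95 CPM in early log and 76.5, 131 and 139 CPM in mid log (log2 fold change 1.13 ± 0.28 (SE), adjusted p = 0.0189). MTR3 was at 48.2, 48.6 and 41.9 CPM in early log and 30.1, 13.7 and 12.6 CPM in mid log (log2 fold change −1.30 ± 0.38 (SE), adjusted p = 0.0313), both core subunits.

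**Figure D3:**
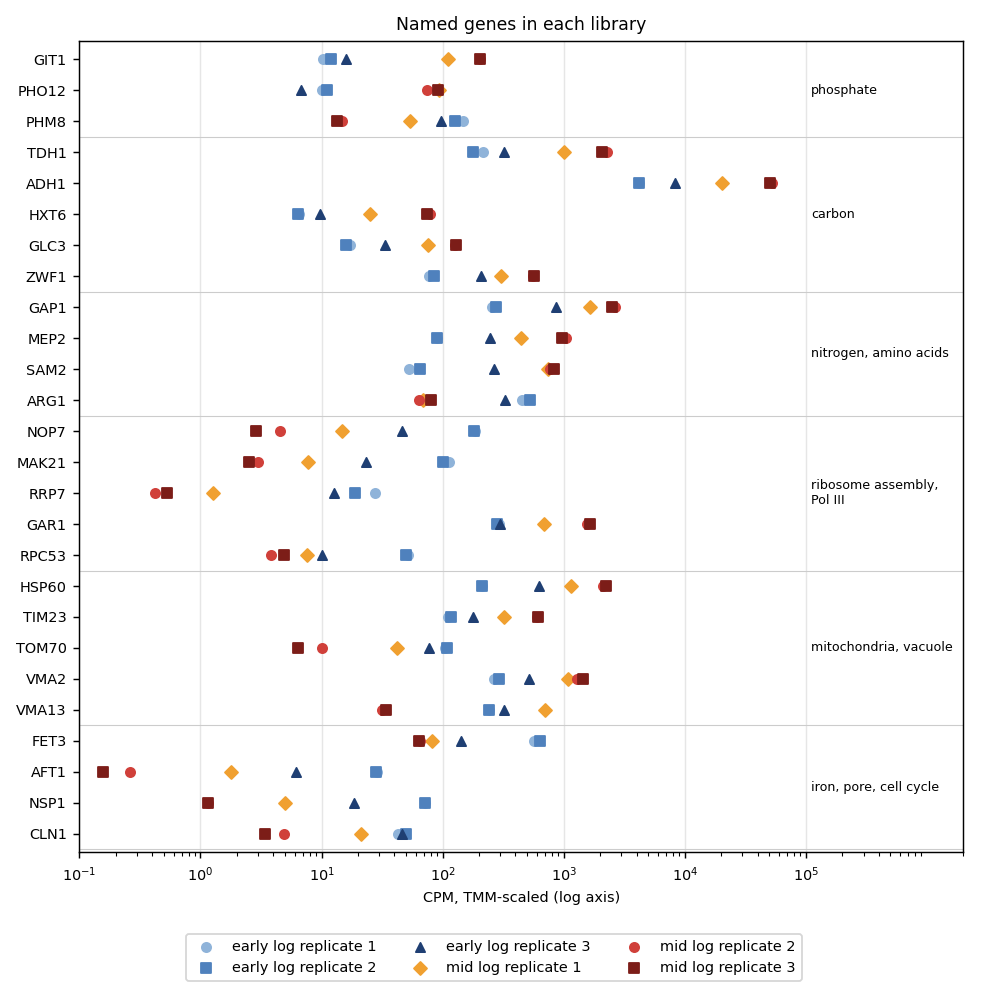
CPM of named genes on a log axis in the 6 libraries, grouped by role. In GIT1 the mid log libraries lie at 111 to 203 CPM and early log at 10.4 to 16.0 CPM, in NOP7 at 2.88 to 14.8 CPM against 45.9 to 185 CPM, and in VMA13 mid log replicate 1 is the highest library and replicates 2 and 3 the lowest.

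Mitochondrial genes differed by complex. Of the import machinery 14 of 30 genes were called higher and 5 lower, 17 and 10 without mid log replicate 1 (median 0.75, −0.13 by library totals, with 4 called higher and 6 lower). TIM23, the channel of the inner membrane translocase, was at 111, 117 and 179 CPM in early log and 321, 602 and 610.3 CPM in mid log (log2 fold change 1.91 ± 0.34 (SE), adjusted p = 0.0135). TIM17, its partner, was at 126, 111 and 97.9 CPM in early log and 206, 511 and 504 CPM in mid log (log2 fold change 1.87 ± 0.37 (SE), adjusted p = 0.0139). TOM70, a receptor on the outer membrane, was at 105, 108 and 77.02 CPM in early log and 41.97, 9.99 and 6.45 CPM in mid log (log2 fold change −2.31 ± 0.69 (SE), adjusted p = 0.0321). TIM23 and TIM17 were above and TOM70 below early log in every mid log library. The mitochondrial chaperonin genes HSP60 (213, 213 and 619.7 CPM in early log and 1156, 2114 and 2220.2 CPM in mid log, log2 fold change 2.39 ± 0.52 (SE), adjusted p = 0.0149) and HSP10 (105, 108 and 209 CPM in early log and 319.8, 772 and 797 CPM in mid log, log2 fold change 2.16 ± 0.45 (SE), adjusted p = 0.0145) were the largest rises of the chaperone list. For mitochondrial ribosomal proteins 12 of 72 genes were called higher and 15 lower, both shares below those of all genes. The counts were 17 and 40 without mid log replicate 1, and the median was −0.44 (−1.16 by library totals, with 1 called higher and 19 lower). The medians by library were 0.01 in mid log replicate 1 and −0.91 and −0.82 in replicates 2 and 3. MRPS12 was at 54.2, 47.7 and 57.4 CPM in early log and 120.3, 325 and 313 CPM in mid log (log2 fold change 2.25 ± 0.39 (SE), adjusted p = 0.0135). RSM28 was at 31.96, 27.9 and 20.9 CPM in early log and 9.84, 5.29 and 3.98 CPM in mid log (log2 fold change −2.07 ± 0.41 (SE), adjusted p = 0.0136). The 8 genes of the mitochondrial genome that were tested had a median of 1.15, with 0.19 in mid log replicate 1 and 1.65 over replicates 2 and 3. RNA of that genome lacks long poly(A) tails, and the libraries were poly(A)-selected.

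Protein folding and turnover lists were among those where mid log replicate 1 and early log replicate 3 were alike. Chaperone genes had medians of 0.61 in mid log replicate 1 and −0.47 and −0.26 in replicates 2 and 3, with 0.60 in early log replicate 3. Of 30 genes 7 were called higher and 1 lower, against 7 and 11 without mid log replicate 1 (median −0.08, −0.77 by library totals, with 2 called higher and 2 lower). With all libraries the share of chaperone genes called higher was near that of all genes. Proteasome genes had medians of 0.27 in mid log replicate 1 and −0.58 and −0.45 in replicates 2 and 3, with 0.27 in early log replicate 3. Of 35 genes 6 were called higher and 5 lower, both shares below those of all genes. The counts were 8 and 17 without mid log replicate 1, and the median was −0.23 (−0.96 by library totals, with 0 called higher and 7 lower). PRE3, a catalytic core subunit, was at 79.95, 76.98 and 119.8 CPM in early log and 159, 284 and 305 CPM in mid log (log2 fold change 1.44 ± 0.33 (SE), adjusted p = 0.0161). RPN5, of the regulatory lid, was at 86.4, 86.7 and 78.5 CPM in early log and 29.4, 4.87 and 4.09 CPM in mid log (log2 fold change −2.71 ± 0.77 (SE), adjusted p = 0.0276). The core subunits PRE2, PRE3, PRE8, PUP1 and PUP3 and the base ATPase RPT5 made up the genes called higher, and RPN2, RPN5, RPN8, RPN11 and SEM1, all of the regulatory particle, those called lower. Most genes of the list were called in neither direction, so these few do not describe the core or the regulatory particle as a whole. STI1, a cochaperone of Hsp90, was at 70.03, 66.1 and 65.3 CPM in early log and 44.8, 17.6 and 17.9 CPM in mid log (log2 fold change −1.32 ± 0.41 (SE), adjusted p = 0.0347).

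The called genes of antioxidant enzymes were higher with all libraries. Of 24 genes 10 were called higher, 16 and 2 higher and lower without mid log replicate 1 (median 0.90, 0.11 by library totals, with 1 called higher and 0 lower). TRX2, a cytosolic thioredoxin, was at 66.8, 58.4 and 116 CPM in early log and 152, 306 and 305 CPM in mid log (log2 fold change 1.66 ± 0.39 (SE), adjusted p = 0.0171). SOD1, copper-zinc superoxide dismutase, was at 343, 319 and 479 CPM in early log and 782, 1275 and 1408 CPM in mid log (log2 fold change 1.60 ± 0.31 (SE), adjusted p = 0.0135). Genes of ER entry, glycosylation and vesicle coating gave 11 higher and 1 lower of 26, 15 and 5 without mid log replicate 1 (median 0.68, −0.20 by library totals, with 1 called higher and 5 lower). SEC61, the channel of the ER translocon, was at 305, 313 and 367 CPM in early log and 622, 1379.8 and 1309.8 CPM in mid log (log2 fold change 1.75 ± 0.34 (SE), adjusted p = 0.0135). PDI1, protein disulfide isomerase, was at 474, 501 and 870.3 CPM in early log and 1505, 1472 and 1758 CPM in mid log (log2 fold change 1.36 ± 0.30 (SE), adjusted p = 0.0155). SEC16, a large scaffold of COPII assembly, was at 48.3, 49.3 and 10.8 CPM in early log and 9.78, 8.53 and 9.33 CPM in mid log (log2 fold change −1.97 ± 0.56 (SE), adjusted p = 0.0271). For SEC16 early log replicate 3 was already near mid log.

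The vacuolar ATPase acidifies the vacuole. 8 of 17 genes of the list were called higher and 2 lower, 10 and 5 without mid log replicate 1 (median 0.71, −0.16 by library totals, with 3 called higher and 3 lower). VMA2 was at 264, 291 and 521 CPM in early log and 1078, 1277 and 1453 CPM in mid log (log2 fold change 1.82 ± 0.33 (SE), adjusted p = 0.0135). VMA11 was at 212, 202 and 138 CPM in early log and 348, 975 and 911 CPM in mid log (log2 fold change 2.02 ± 0.42 (SE), adjusted p = 0.0145). VMA10 was at 111, 85.9 and 48.05 CPM in early log and 23.9, 17.7 and 16.8 CPM in mid log (log2 fold change −2.06 ± 0.36 (SE), adjusted p = 0.0135). VMA2 and VMA11 were higher and VMA10 lower in every mid log library. VMA13, a regulatory subunit of the same enzyme, was at 242, 241 and 323 CPM in early log and 699.8, 31.9 and 33.8 CPM in mid log, so that mid log replicate 1 was the highest library and replicates 2 and 3 the lowest, and the difference was not called (log2 fold change −0.07 ± 1.11 (SE), adjusted p = 0.96). Without mid log replicate 1 its log2 fold change was −3.01 (adjusted p = 0.000172). This change in p follows from the gap between the mid log libraries and is no separate result. Autophagy genes gave 5 higher and 11 lower of 37 (12 and 15 without mid log replicate 1, median −0.29, −1.12 by library totals, with 0 called higher and 17 lower). ATG5 was at 44.8, 45.3 and 54.5 CPM in early log and 77.9, 145 and 142 CPM in mid log (log2 fold change 1.34 ± 0.29 (SE), adjusted p = 0.0155). ATG11 was at 20.7, 21.3 and 15.7 CPM in early log and 7.38, 8.69 and 9.59 CPM in mid log (log2 fold change −1.17 ± 0.28 (SE), adjusted p = 0.0176). Peroxisome biogenesis gave 4 and 8 of 29 (7 and 13 without mid log replicate 1, median −0.05, −0.88 by library totals, with 1 called higher and 12 lower). Its share called lower was near that of all genes. PEX2, a ubiquitin ligase, was at 36.9, 37.6 and 41.3 CPM in early log and 75.6, 189 and 169.5 CPM in mid log (log2 fold change 1.90 ± 0.36 (SE), adjusted p = 0.0135). PEX5, the import receptor, was at 17.03, 17.3 and 7.19 CPM in early log and 5.79, 2.62 and 3.72 CPM in mid log (log2 fold change −1.77 ± 0.47 (SE), adjusted p = 0.0233).

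Cell wall genes gave 14 higher and 1 lower of 32, 25 and 2 without mid log replicate 1 (median 0.88, 0.01 by library totals, with 1 called higher and 7 lower). TIP1, a mannoprotein of the wall, was at 184, 184 and 181 CPM in early log and 641, 1412 and 1445 CPM in mid log (log2 fold change 2.67 ± 0.35 (SE), adjusted p = 0.0135), and its early log values were nearly equal. SCW4, a glucanase, was at 505, 534 and 713 CPM in early log and 1069, 2186 and 2083 CPM in mid log (log2 fold change 1.61 ± 0.34 (SE), adjusted p = 0.0145). PIR1, a protein linked to glucan, was at 1136, 1183 and 693 CPM in early log and 626, 174 and 181 CPM in mid log (log2 fold change −1.62 ± 0.55 (SE), adjusted p = 0.0472). Of the seripauperins, a family of near-identical genes near chromosome ends, 8 of 24 could be tested and 1 was called, against 6 higher without mid log replicate 1 and 0 by library totals. Histone genes gave 5 higher and 0 lower of 10 (8 and 2 without mid log replicate 1, median 0.76, −0.08 by library totals, with 0 called higher and 2 lower). HTA1, a histone H2A gene, was at 851, 805 and 817 CPM in early log and 1183, 2390.3 and 2438 CPM in mid log (log2 fold change 1.28 ± 0.32 (SE), adjusted p = 0.0201).

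Regulators of the cell cycle held few genes called higher. Of 20 cyclins and control genes 9 were called lower and 1 higher, 14 and 2 without mid log replicate 1 (median −1.56, −2.22 by library totals, with 0 called higher and 13 lower). The list summed to 752, 772 and 704 CPM in early log and 548, 406 and 366 CPM in mid log. CLN1, a G1 cyclin, was at 42.5, 49.9 and 46.1 CPM in early log and 21.3, 4.87 and 3.41 CPM in mid log (log2 fold change −2.22 ± 0.68 (SE), adjusted p = 0.0348). SIC1, an inhibitor of the S phase cyclin kinase, was at 27.1, 19.1 and 14.8 CPM in early log and 6.74, 1.52 and 1.57 CPM in mid log (log2 fold change −2.62 ± 0.65 (SE), adjusted p = 0.0201). The components of the G1 transcription factors SBF and MBF, SWI4 (−2.40), SWI6 (−1.82) and MBP1 (−2.41), were all lower in log2 fold change. FAR1, which arrests G1 in response to pheromone, was the exception, at 39.4, 42.3 and 42.1 CPM in early log and 79.4, 52.9 and 71.8 CPM in mid log (log2 fold change 0.72 ± 0.24 (SE), adjusted p = 0.0455), and its log2 fold change was −0.05 by library totals. In DNA replication 3 of 39 genes were called higher and 5 lower, both shares below those of all genes. The counts were 10 and 22 without mid log replicate 1 (median −0.37, −1.13 by library totals, with 0 called higher and 15 lower). RNR2, a ribonucleotide reductase subunit, was at 546, 588 and 616 CPM in early log and 888, 1194 and 1191 CPM in mid log (log2 fold change 0.90 ± 0.22 (SE), adjusted p = 0.0196). ORC1, of the origin recognition complex, was at 23.04, 17.5 and 12.8 CPM in early log and 5.97, 2.51 and 2.36 CPM in mid log (log2 fold change −2.29 ± 0.47 (SE), adjusted p = 0.0143).

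Nuclear pore genes gave 2 higher and 11 lower of 32, 4 and 20 without mid log replicate 1 (median −0.85, −1.43 by library totals, with 1 called higher and 19 lower). NSP1 and NUP57, which form a complex in the central channel, were at 70.97, 71.7 and 18.4 CPM in early log and 5.03, 1.15 and 1.15 CPM in mid log (log2 fold change −4.43 ± 0.83 (SE), adjusted p = 0.0135) and at 52.99, 46.5 and 8.17 CPM in early log and 3.66, 1.47 and 0.891 CPM in mid log (log2 fold change −4.14 ± 0.85 (SE), adjusted p = 0.0143). In both the mid log libraries were below early log, with early log replicate 3 between. POM33, a membrane protein of the pore, was at 77.5, 77.1 and 92.8 CPM in early log and 144, 317 and 299 CPM in mid log (log2 fold change 1.62 ± 0.33 (SE), adjusted p = 0.0141).

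Nutrient signalling genes gave 3 higher and 11 lower of 41, 4 and 25 without mid log replicate 1 (median −0.50, −1.22 by library totals, with 0 called higher and 19 lower). With all libraries the share called lower was near that of all genes and the share called higher below it. Without mid log replicate 1 the share called lower was above that of all genes. MIG1, the repressor that acts in glucose, was at 20.9, 19.6 and 6.02 CPM in early log and 2.804, 0.209 and 0.682 CPM in mid log (log2 fold change −3.60 ± 0.92 (SE), adjusted p = 0.0211). TCO89, a subunit of TOR complex 1, was at 21.6, 21.8 and 6.402 CPM in early log and 2.86, 0.523 and 0.839 CPM in mid log (log2 fold change −3.52 ± 0.78 (SE), adjusted p = 0.0155). LST8, shared by both TOR complexes, was at 25.8, 24.3 and 35.8 CPM in early log and 58.2, 50.2 and 64.5 CPM in mid log (log2 fold change 1.01 ± 0.26 (SE), adjusted p = 0.0215). GTR2, a Rag-type GTPase upstream of TOR complex 1, was at 28.7, 28.02 and 34.9 CPM in early log and 44.99, 72.1 and 72.7 CPM in mid log (log2 fold change 1.05 ± 0.28 (SE), adjusted p = 0.0229). The groups were apart in all 4. Genes lower also included the regulators of ribosome genes FHL1, IFH1, STB3 and TOD6 at −2.47, −1.61, −2.87 and −2.66 in log2 fold change.

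Mating genes gave 3 higher and 5 lower of 22, both shares below those of all genes. The counts were 4 and 12 without mid log replicate 1 (median −0.52, −1.31 by library totals, with 0 called higher and 6 lower). The genes higher were the receptor STE2 (364, 364 and 348 CPM in early log and 672, 821 and 979.9 CPM in mid log, log2 fold change 1.20 ± 0.22 (SE), adjusted p = 0.0135) and the a-factor genes MFA1 (log2 fold change 1.45 ± 0.37 (SE), adjusted p = 0.0207) and MFA2 (log2 fold change 0.99 ± 0.30 (SE), adjusted p = 0.0343), all a-specific. Of the 7 a-specific genes these 3 were the only ones called. Among the genes lower were the kinase STE20 (55.1, 48.4 and 16.5 CPM in early log and 12.5, 7.38 and 7.92 CPM in mid log, log2 fold change −2.10 ± 0.50 (SE), adjusted p = 0.0173) and the adaptor STE50 (25.2, 22.9 and 18.9 CPM in early log and 10.8, 1.73 and 1.57 CPM in mid log, log2 fold change −2.23 ± 0.76 (SE), adjusted p = 0.048). For meiosis and sporulation, which this haploid strain does not undergo, 20 of 25 genes could be tested, 1 was called higher and 8 lower (3 and 10 without mid log replicate 1, 1 called higher and 12 lower by library totals). DIT1 had the most reads of the list, at 5.84, 5.797 and 3.23 CPM in early log and 5.18, 7.85 and 10.2 CPM in mid log, and was not called (log2 fold change 0.64 ± 0.39 (SE), adjusted p = 0.202). Of the 7 RNA polymerase II subunits RPB4 was called, at 86.2, 77.6 and 38.1 CPM in early log and 15.1, 7.48 and 7.97 CPM in mid log (log2 fold change −2.72 ± 0.45 (SE), adjusted p = 0.0135), and 2 and 5 were called higher and lower without mid log replicate 1.

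Outside the lists the largest falls included TPM1, the main tropomyosin, at 216, 214 and 19.97 CPM in early log and 18.04, 9.31 and 7.602 CPM in mid log (log2 fold change −3.68 ± 0.87 (SE), adjusted p = 0.0176). YCK2, a casein kinase of the plasma membrane, was at 84.8, 85.2 and 13.97 CPM in early log and 7.68, 3.45 and 3.15 CPM in mid log (log2 fold change −3.68 ± 0.76 (SE), adjusted p = 0.0143). ZEO1, a protein of the cell periphery, was at 361, 222 and 165 CPM in early log and 53.6, 22.8 and 17.4 CPM in mid log (log2 fold change −2.99 ± 0.52 (SE), adjusted p = 0.0135). Early log replicate 3 was nearer to mid log replicate 1 than to the other early log libraries for TPM1 and YCK2, but not for ZEO1.

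Mid log replicate 1 was set on the axis from early log to mid log replicates 2 and 3 for 4568 genes, those of the 4592 called without it that were also among the 5951 tested with it. It lay between the early range and replicates 2 and 3 for 3024 genes (66.2%), within the early range for 723 (15.8%), beyond early on the far side for 427 (9.35%), within the range of replicates 2 and 3 for 187 (4.09%) and past them for 207 (4.53%). The median share of the distance covered was 40.6% for genes higher and 40.5% for genes lower. Over all 5951 genes the median absolute log2 difference from the early log mean was 0.60 in mid log replicate 1 and 1.20 and 1.25 in replicates 2 and 3, and 26.5%, 58.3% and 60.7% of genes were more than 1 away.

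The share differed by list. It was 80.1% for phosphate genes, 73.9% for arginine genes, 67.4% for trehalose and glycogen, 61.7% for glycolysis and 60.7% for purine and pyrimidine synthesis, as medians over the genes called without mid log replicate 1 (16, 5, 15, 19 and 20 genes). It was 49.9% for ribosome assembly factors, 17.8% for ribosomal proteins, 16.4% for the citric acid cycle and 11.2% for the respiratory chain (119, 72, 14 and 23 genes). The lowest of all lists was −2.77%, for 7 subunits of RNA polymerase II. The genes with the widest gap between mid log replicate 1 and the other mid log libraries lay in part close to early log. PUB1, an mRNA-binding protein, was at 170.2, 175 and 142 CPM in early log and 103, 4.5002 and 2.097 CPM in mid log, IPI3, a factor of ribosome assembly, at 94.1, 97.9 and 58.4 CPM in early log and 44.3, 1.31 and 0.944 CPM in mid log, and CDC12, a septin, at 64.999, 62.5 and 61.2 CPM in early log and 42.2, 1.62 and 2.04 CPM in mid log. Their adjusted p values were 0.196, 0.168 and 0.179 with all libraries and 0.000174, 0.000161 and 0.000161 without mid log replicate 1. The genes were chosen for that gap, so this change in p follows from the choice and is no separate result. On the other side HXT6, SCS3, COA3, MRPS18 and VMA11 had the widest gaps below replicates 2 and 3. SCS3, an ER protein of lipid metabolism, was at 36.3, 32.05 and 57.03 CPM in early log and 103, 298 and 263 CPM in mid log (log2 fold change 2.40 ± 0.45 (SE), adjusted p = 0.0135). MRPS18, a mitochondrial ribosomal protein, was at 36.9, 39.6 and 41.5 CPM in early log and 33.9, 96.8 and 99.4 CPM in mid log (log2 fold change 0.96 ± 0.41 (SE), adjusted p = 0.0912), where mid log replicate 1 was the lowest library.

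**Figure D4:**
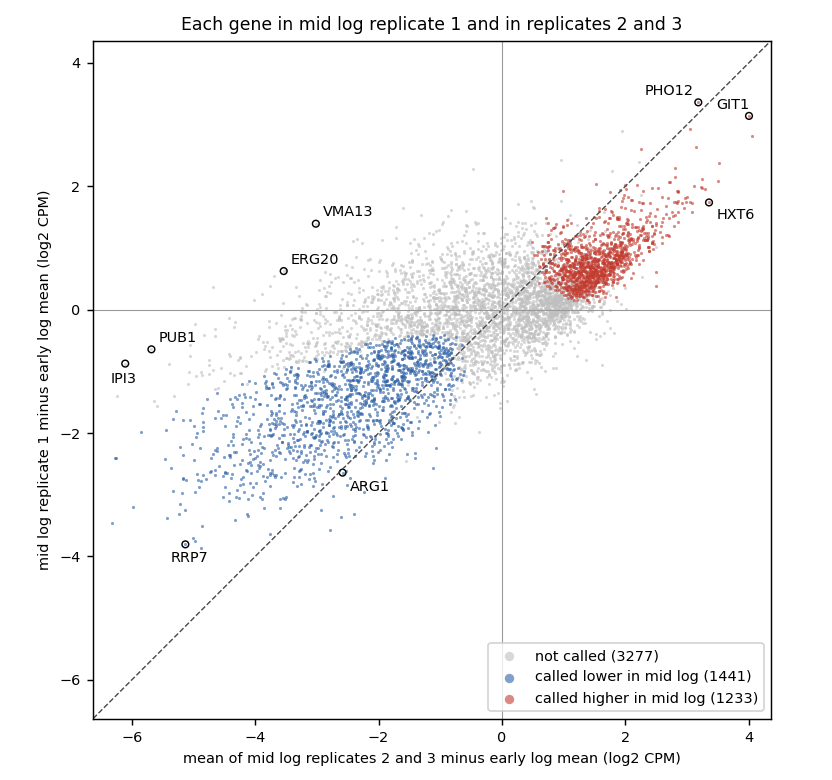
Each point is a gene, with the mean of mid log replicates 2 and 3 minus the early log mean on the x axis and mid log replicate 1 minus the early log mean on the y axis, both in log2 CPM, and a dashed line where they are equal. Of the genes, 581 lie more than 3 below early log on the x axis and 34 on the y axis, and VMA13 is above 0 on one and below 0 on the other.

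Base composition, length and abundance moved with the difference. In 5 equal bins of protein-coding genes by GC content the median log2 fold change was −0.82, −0.53, −0.25, 0.15 and 0.62 from the lowest to the highest bin. In 5 bins by length it was 0.29, 0.04, −0.13, −0.33 and −0.75 from short to long. In steps of mean log2 CPM, under 3, 3 to 5, 5 to 7, 7 to 9 and over, it was −0.62, −0.70, 0.15, 0.84 and 0.86. Genes called higher had a median GC content of 41.7% and a median length of 1050 bases, and genes called lower 38.2% and 1515 bases. The trend with GC content was present in mid log replicate 1 at a similar size, from −0.67 to 0.55 over the bins, while that with length was mostly in replicates 2 and 3, from 0.47 to −1.03 against −0.02 to −0.38. With the GC trend removed 1575 genes were called higher and 1115 lower, and 2046 of the 2674 calls were shared. With the length trend removed it was 1656 and 1230, and 2367 were shared. Ribosome assembly factors then stood at 10 genes higher and 58 lower without the GC trend and at 14 and 67 without the length trend, and glycolysis genes at 18 and 0 and at 19 and 0.

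**Figure D5:**
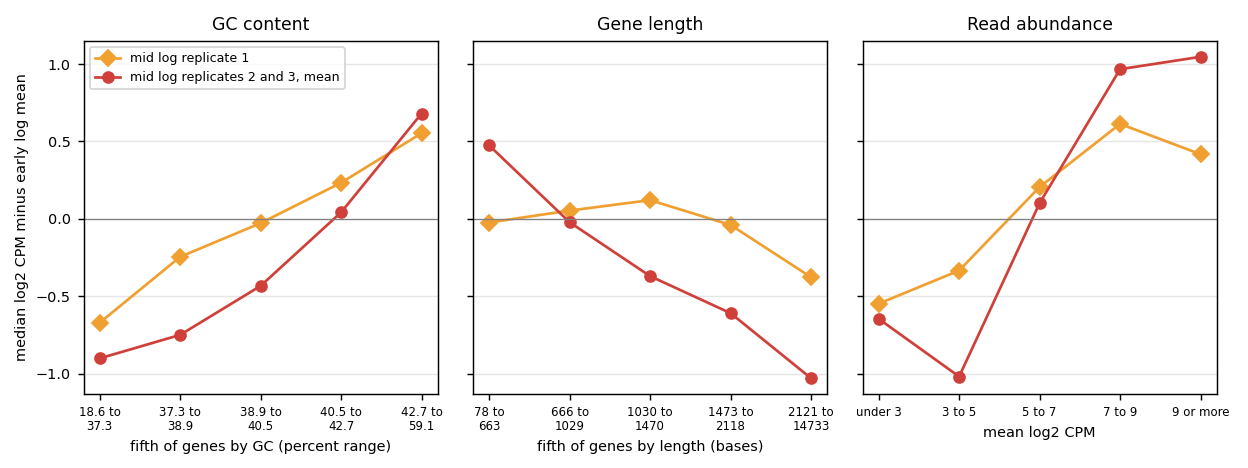
Median over genes of log2 CPM minus the early log mean in bins of GC content, gene length and mean log2 CPM, for mid log replicate 1 and for the mean of mid log replicates 2 and 3. The GC panel rises from −0.67 to 0.55 and from −0.90 to 0.68, and the length panel falls from 0.47 to −1.03 in replicates 2 and 3.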

How the data were processed

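The deposited files hold raw counts of reads per gene, one table per library, which the authors made by aligning single-end reads to the R64 genome with STAR and counting with HTSeq. The submitters' processing notes name HTSeq 0.12.3, FastQC 0.11.9, DESeq2 1.42.1 and R 4.3.1, while the study's methods name other versions of HTSeq, DESeq2 and R. The strand setting, feature type and annotation release are not given in the sources used here. Rows that name no gene were set aside. Among all reads 6.65% to 9.04% fell on no gene, 0.281% to 0.453% on more than 1 gene and 7.60% to 11.2% aligned to more than 1 place in the 6 libraries. Counted reads per library were 25763465 to 34358259. Precision was set more by differences between libraries than by depth, except for genes with few reads in single libraries, where depth limited it as well.

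Groups came from the sample titles. The 6 libraries were fitted in edgeR 4.0.16 (R 4.3.3, limma 3.58.1) after filterByExpr and TMM scaling, with the quasi-likelihood test and Benjamini-Hochberg adjustment over all genes tested. With 3 libraries against 3 no exact permutation of a single gene could go below p = 0.1, so tests rest on the model across genes. Levels are CPM, and log2 CPM used a prior count of 2. Standard errors were derived from the F statistic. Gene lists, promoters and figures were handled in Python 3.11.15 (matplotlib 3.10.9, numpy 2.4.6, pandas 2.3.3, scipy 1.17.1). On simulated counts with 200 of 5930 genes changed by 2 on the log2 scale, with no outlying library, 79.0% were recovered and 3.66% of calls were false.

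The members, the 46 gene lists and the rules were chosen with earlier results of these data known. Named genes were the 10 largest rises and 10 largest falls among called and named genes whose groups were apart and whose log2 CPM averaged 5 or more, then up to 2 called genes per list and direction averaging 3 or more (or the most abundant gene of a list without one), the 5 most abundant genes, the 5 genes on each side with the widest gap between mid log replicate 1 and replicates 2 and 3, and the mating type markers. Further list genes are named as the called members of their list or were chosen after their values were seen. Terms of the RefSeq annotation with at least 20 tested genes were ordered by median, and all kinds of term were used because the annotation does not mark biological processes apart. Gene positions, names and promoters came from the RefSeq annotation of R64, in which 6047 of 7127 rows were found. Named genes were searched in the genome for copies of at least 50 bases and 97% identity.

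The alternatives were library totals or DESeq2's size factors for scaling, DESeq2's test (1.42.0), no filter, a filter that asks for 10 counts in each library, all 9 libraries in one fit, a replicate block, removal of the GC or length trend, protein-coding genes only, and each library left out in turn.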

Additional observations from a re-analysis of the deposited data

How the results depend on the processing

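Leaving out single libraries gave 0 to 4592 genes called, 0 to 2019 of them higher and 0 to 2573 lower. It was 0 without early log replicate 1 or 2 (2462 and 2459 at an unadjusted p below 0.05 by edgeR) and without mid log replicate 2 or 3 (2476 and 2441), 2208 without early log replicate 3 and 4592 without mid log replicate 1, which shared 2660 with the 2674 of the full comparison. Scaling by library totals gave 216 genes higher and 2127 lower, and the log2 fold changes turned to −0.21 for DIT1, −0.32 for BAR1, −0.0525 for FAR1, −0.16 for ASG7, −0.71 for SAG1, −0.062 for PAU23, −0.12 for RPO31, −0.14 for RET1 and −0.077 for THI6. STE3 turned to 0.046 with the GC trend removed and to 0.029 with the replicate block added. Removing the GC trend gave 1575 higher and 1115 lower, and removing the length trend 1656 and 1230. DESeq2's size factors gave 1460 and 1339, DESeq2's test 1542 and 1608, no filter 1113 and 1409, a minimum of 10 counts 1072 and 1266, all 9 libraries in one fit 1624 and 1840, and protein-coding genes 1202 and 1437. The causes of these changes were not tested.

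The replicate numbers were checked as pairs. The correlation of deviations from the group mean was 0.102, −0.001 and 0.113 for same-numbered libraries, so the numbers were not taken to pair the cultures, and early log replicate 2 was not most like its own number. A fit with the replicate block called 2648 genes, 1009 higher and 1639 lower, 2300 of them also called without it.

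Genes with mean log2 CPM under 3 hold few reads in single libraries, and their fold changes depend on the prior count. Deep falls above that level can also rest on few reads. In mid log replicates 2 and 3 AFT1 had 5 and 3 reads, MIG1 4 and 13 and RRP7 8 and 10.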

Other observations

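Terms of the reference annotation described groups outside the lists, over 232 terms with at least 20 tested genes. The lowest medians were in rDNA heterochromatin formation (−2.04 over 22 genes, 1 called higher and 14 lower), cellular response to pheromone (−1.95 over 21, 1 and 9), sequence-specific transcription factors of RNA polymerase II (−1.88 over 38, 2 and 21), nucleoplasm (−1.85 over 30, 0 and 18), mitotic sister chromatid segregation (−1.84 over 20, 3 and 14) and assembly of the RNA polymerase II preinitiation complex (−1.80 over 29, 3 and 15). The highest were in cell redox homeostasis (1.01 over 20, 11 and 1), GPI anchor synthesis (0.95 over 23, 13 and 0), COPII-coated vesicles (0.90 over 22, 13 and 0), transmembrane transport (0.79 over 49, 20 and 1), the cell wall (0.75 over 75, 26 and 3) and the mitochondrial nucleoid (0.74 over 24, 10 and 2). The median over all genes was −0.12. Genes within 30 kb of a chromosome end had a median of 0.45 over 283 genes, 75 called higher and 31 lower, against −0.24 over the other 5336. Rows with no entry in the reference had a median of 0.81 over 230 open reading frames and 0.96 over 89 rows with other names, of which 25 were called higher and 0 lower.

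A set of 51 genes, chosen after their values were seen, had a mean log2 CPM of at least 5, lay within 1 of the early log mean or above it in mid log replicate 1 and lay more than 3 below it in the mean of mid log replicates 2 and 3. ERG20, which makes farnesyl pyrophosphate, was at 387, 386 and 466 CPM in early log and 635, 36.5 and 34.1 CPM in mid log. PIL1, the main eisosome protein, was at 301, 304 and 324 CPM and 369, 23.1 and 18.6 CPM. TYS1, tyrosyl-tRNA synthetase, was at 257, 270.4 and 249 CPM and 338, 19.2 and 19.0 CPM. In each of these genes mid log replicate 1 was at or above early log and replicates 2 and 3 were the lowest libraries. EGD2, a subunit of the nascent polypeptide-associated complex, was at 825, 802 and 655 CPM and 676, 73.2 and 84.7 CPM, and SED1, a cell wall protein, at 3096, 3259 and 3949.6 CPM and 1888, 386 and 295 CPM. The septin genes CDC11 and CDC12 and the endocytic coat genes SLA1 and SLA2 were in the set. Their median GC content was 41.4% and median length 1452 bases, against 40.4% and 1230 bases in the 2518 protein-coding genes of that abundance. Of 4568 genes called without mid log replicate 1 and also tested with it, early log replicate 3 lay on the mid log side of early log replicates 1 and 2 for 2820 (61.7%), by a median of 0.14 on the log2 scale, where mid log replicate 1 lay 0.63 and replicates 2 and 3 lay 1.52 from the early log mean.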
